A study of Mus musculus with 4 samples.

Results

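The Hox genes encode homeodomain transcription factors that lie in the Hoxa, Hoxb, Hoxc and Hoxd clusters, on mouse chromosomes 6, 11, 15 and 2. In the embryo the genes at the 3′ end of a cluster, which carry low paralogue numbers, are active from the hindbrain backwards, and those at the 5′ end, with high numbers, are active only towards the tail. The forebrain lies in front of the Hox domain, and the hindbrain and spinal cord keep part of their Hox expression in the adult. Polycomb complexes hold the clusters silent where they are not used, and retinoic acid opens them from the 3′ end. Members were all genes whose symbol in the array's annotation is Hoxa, Hoxb, Hoxc or Hoxd followed by a number. They came to 33 of the 18193 genes on the array, read by 48 of the 45037 probe sets tested.

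The groups were 2 BCAS1 +/+ and 2 BCAS1 -/- males on C57BL/6, all bred from BCAS1 +/- parents and taken at 8 to 9 weeks for brain RNA. The sample descriptions call the tissue cerebrum, and the remaining labels call it brain. Each mouse was measured on 1 Affymetrix array, and the values are RMA levels on a log2 scale.

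Array medians lay between 6.49 and 6.51, and the lower quartiles between 4.86 and 4.91. The brightest probe set of Bcas1, which encodes a myelin-associated protein, measured 12.17 and 12.21 in the wild-type mice against 11.05 and 10.75 in the knockouts. Knockout minus wild type was -1.29 (SE 0.12), and limma's adjusted p was 0.742. The remaining pair of Bcas1 probe sets lay higher in the knockouts, by 0.77 and 0.64, so only the brightest followed the labels. The labels do not place any of them inside or outside the disrupted segment. Brain identity was clear: of 15 measured marker genes of neurons, glia and endothelium, 14 were above the array median on all 4 arrays. The exception was Pecam1, of endothelium, at a mean of 6.10. All 7 measured markers of the cerebrum were above the median on all arrays, such as Camk2a at a mean of 13.28. Of 8 measured hindbrain and spinal cord genes, 4 were above the median on all arrays, where 62.4% of all genes were. The count is under the share over all genes, but that share does not tell whether hindbrain tissue was in the samples. Its presence was not tested. Slc6a5, the glycine transporter of brainstem and spinal neurons, had a mean of 8.37, and Glra1, a glycine receptor subunit, a mean of 8.39. En2, a transcription factor of the midbrain and cerebellum, had a mean of 9.06. The second knockout array held nasal transcripts such as Obp1a, at 8.92 against at most 4.15 on the other arrays, and the mean of 8 nasal genes was 7.29 there and 5.18 to 5.30 elsewhere. The mean of 5 pituitary genes was 6.06 to 6.18 on the other arrays and 6.47 on this one. Gh, Prl, Pomc and Lhb were highest there, Gh at 7.53 against at most 6.88, while Tshb was lowest there at 5.44.

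Most Hox genes had dim signals in these brains, and the dimmest were mainly those with high paralogue numbers. On all 4 arrays 25 of the 33 genes lay below the array median, and 14 of them below the lower quartile. Over all genes 34.4% lay below the median on all 4 arrays and 15.5% below the lower quartile. Hoxa5, Hoxa7, Hoxa9 and Hoxc9 were above the median on every array. Of the 10 genes with paralogue numbers 10 to 13, 9 were below the lower quartile on all arrays, against 4 of 13 with numbers 1 to 5 and 1 of 10 with numbers 6 to 9. A probe set's level depends on its probes as well as on the RNA, so these positions describe signals and do not rank genes by transcript amount. Without detection calls, a dim signal and background cannot be told apart. With the median and quartile taken instead over the brightest probe set of each gene, all 33 Hox genes lay below the median and 22 below the lower quartile on all arrays, so the 4 exceptions rest on the reference used. The values therefore neither show nor refute that the family is silent in this tissue.

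**Figure D1:**
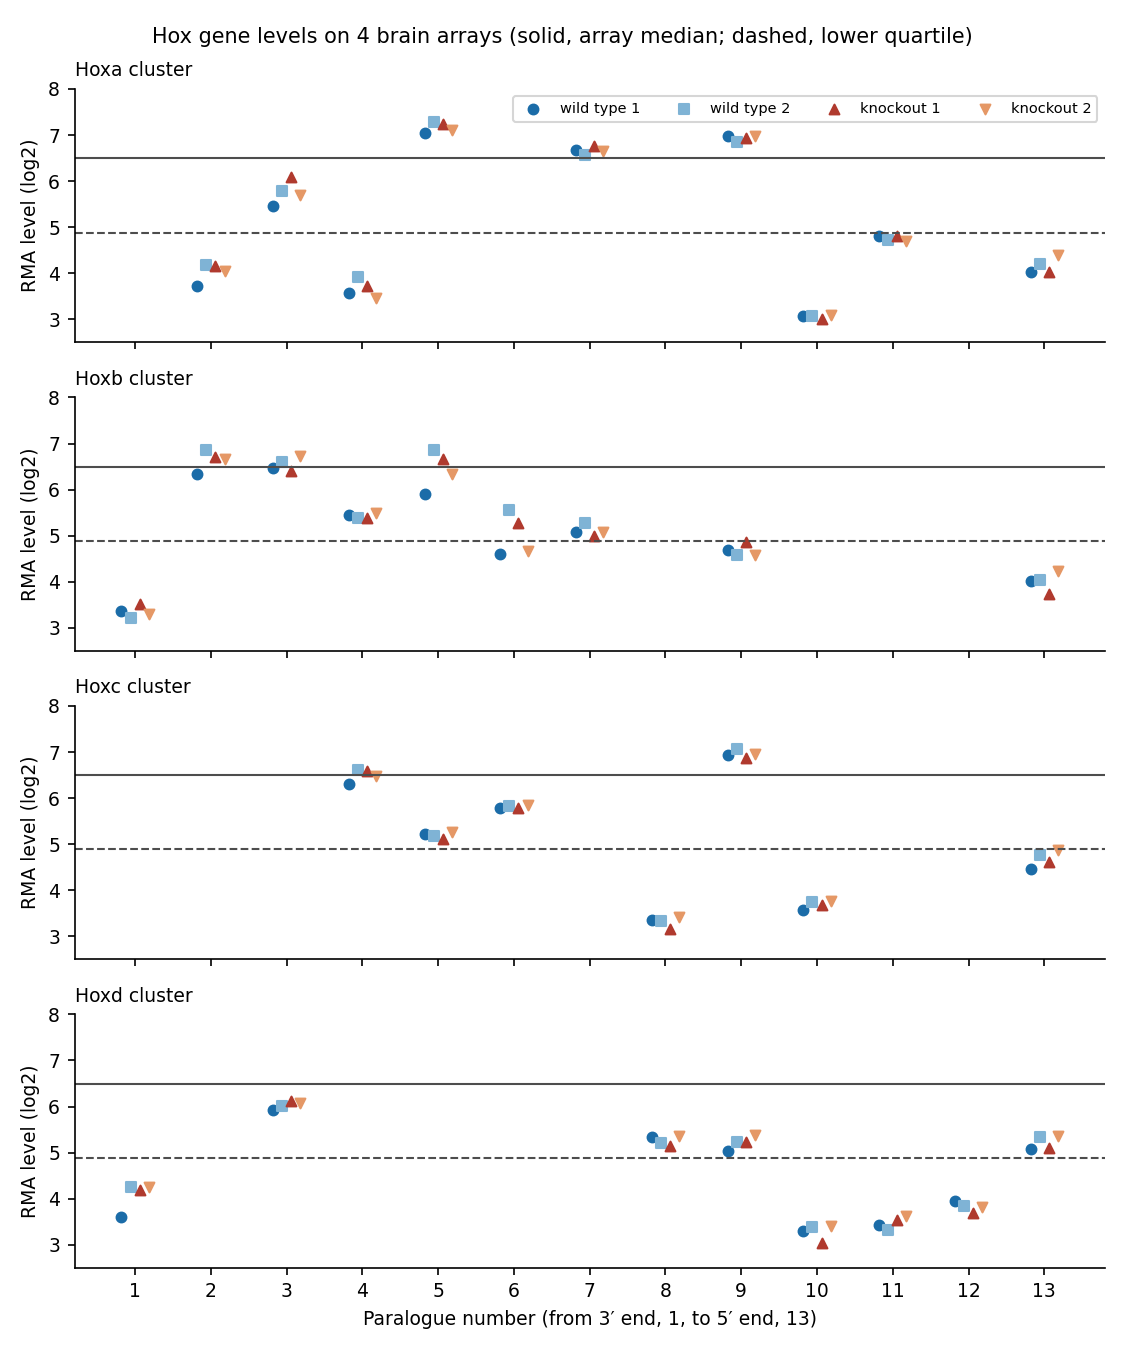
RMA level (log2) of the brightest probe set of each Hox gene on the 4 arrays, by cluster and paralogue number. Each symbol is 1 mouse, the solid line is the mean array median and the dashed line the mean lower quartile. Hoxa5, Hoxa7, Hoxa9 and Hoxc9 lie above the solid line on all arrays, and 9 of the 10 genes numbered 10 to 13 lie below the dashed line.

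In the Hoxa cluster 5 of 9 genes were below the lower quartile on all arrays and 3 were above the median. Hoxa5, which is needed for the development of brainstem breathing circuits, measured 7.04 and 7.28 in the wild-type mice against 7.23 and 7.11 in the knockouts. This value comes from a probe set of the x_at design, which can share probes with other sequences. Hoxa5's other probe set, of the unique design, measured 6.27 and 7.24 in the wild-type mice against 7.03 and 6.96 in the knockouts. There the first wild-type array stood 0.69 below the next, a separation that the shared-design set did not show. Hoxa9, known for its part in blood stem cells and leukaemia, measured 6.99 and 6.86 in the wild-type mice against 6.93 and 6.98 in the knockouts. A second Hoxa9 probe set gave a mean of 4.39, 2.56 lower, so the position of this gene depends on which probe set is read. Hoxa7, a gene of the thoracic skeleton, measured 6.68 and 6.56 in the wild-type mice against 6.76 and 6.65 in the knockouts, with the genotypes overlapping. At the other end, Hoxa10, which patterns the uterus and the lumbar spine, measured 3.07, 3.08, 3.01 and 3.09, the lowest mean of the family. Its other probe set gave a mean of 2.99.

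The Hoxb cluster held 3 of the 4 genes that lay above the median on some arrays and below it on others, Hoxb2, Hoxb3 and Hoxb5. Hoxb2, which acts in the development of facial motor neurons, measured 6.33 and 6.87 in the wild-type mice against 6.70 and 6.66 in the knockouts. It was above the median on 3 of 4 arrays, all but the first wild type. Hoxb3 measured 6.48 and 6.60 in the wild-type mice against 6.41 and 6.74 in the knockouts and crossed the median within both groups. Hoxb5, a regulator of neural crest and enteric neurons, measured 5.90 and 6.86 in the wild-type mice against 6.66 and 6.34 in the knockouts. The wild-type mice thus lay on either side of both knockout mice. Hoxb6 showed the same arrangement at lower levels, with 4.60 and 5.56 in the wild-type mice against 5.28 and 4.67 in the knockouts. Hoxb1, which defines a single segment of the embryonic hindbrain, had a mean of 3.35 and Hoxb13, a gene of the tail and prostate, a mean of 4.01. Both were below the lower quartile on all arrays.

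Among the 7 measured Hoxc genes, Hoxc9 and Hoxc4 had the highest signals. Hoxc9, which organises motor neuron columns of the thoracic spinal cord, measured 6.94 and 7.06 in the wild-type mice against 6.88 and 6.95 in the knockouts. Hoxc4 measured 6.31 and 6.62 in the wild-type mice against 6.58 and 6.47 in the knockouts, on both sides of the median. Hoxc8, active at the level of the forelimb motor neurons, measured 3.35, 3.34, 3.16 and 3.42, well under the lower quartile. All 8 Hoxd genes lay below the median on every array, and 4 of them below the lower quartile. Hoxd3 had the highest mean of the cluster at 6.03, followed by Hoxd8, which measured 5.35 and 5.22 in the wild-type mice against 5.15 and 5.36 in the knockouts. Hoxd10, which acts in lumbar motor neurons, measured 3.31 and 3.39 in the wild-type mice against 3.04 and 3.41 in the knockouts.

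Of the 11 Hox genes with more than 1 probe set, 5 had probe sets more than 1 log2 unit apart, and Hoxa9 was the only one more than 2 apart. Hoxa3 had 4 probe sets with means from 4.21 to 5.76 and Hoxc5 had 3 from 3.57 to 5.19. The 3 probe sets that name a pair of neighbouring Hox genes cannot be assigned to either gene. Those shared by Hoxd3 and Hoxd4 had means of 6.24 and 4.41, and the one shared by Hoxb7 and Hoxb8 a mean of 5.04. The noncoding transcripts of the clusters were also dim or middling: Hoxb5os had a mean of 6.32, while the 4 probe sets of Hoxa11os and Hoxd3os1 had means of 2.97 to 4.13.

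The genes that flank the clusters ranged from dim to bright. Beyond the 3′ end of Hoxa, Skap2, a signalling adaptor, had a mean of 8.41 and Snx10, a sorting nexin, 11.19. Beyond its 5′ end the noncoding Evx1os had 3.81, and Evx1, a homeobox gene related to the clusters, 5.18. Hoxd was bordered at the 3′ end by Mtx2, a mitochondrial import protein, at 9.86, and at the 5′ end by Evx2 at 5.61 and then Lnpk, which shapes the endoplasmic reticulum, at 8.55. On the 3′ side of Hoxc lay Smug1, a DNA repair enzyme, at 8.23 and Cbx5, a heterochromatin protein, at 10.29. On its 5′ side Calcoco1 had 6.19 and Atp5g2, a subunit of ATP synthase, 11.07. Next to Hoxb, Ttll6 on the 5′ side and Skap1 on the 3′ side had means of 5.81 and 5.43. Further out lay Calcoco2 at 2.66 on the 5′ side and Snx11 at 8.29 on the 3′ side.

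Promoter sequences were available for 19 of the 33 measured members, in RefSeq windows of assembly GRCm38.p6 that run from 250 bases before to 50 bases after the annotated start. The windows of 3 genes are shown 5′ to 3′ on the strand of the gene, with every CpG dinucleotide in capitals. Hoxa5 and Hoxd1 are shown because they took part in the separation of the first wild-type array described further on, and Hoxd10 because it was among the dimmest members with many CpGs. The Hoxa5 window lies at chr6:52204538-52204837 on the minus strand, that of Hoxd1 at chr2:74762730-74763029 and that of Hoxd10 at chr2:74691641-74691940, both on the plus strand.
Hoxa5: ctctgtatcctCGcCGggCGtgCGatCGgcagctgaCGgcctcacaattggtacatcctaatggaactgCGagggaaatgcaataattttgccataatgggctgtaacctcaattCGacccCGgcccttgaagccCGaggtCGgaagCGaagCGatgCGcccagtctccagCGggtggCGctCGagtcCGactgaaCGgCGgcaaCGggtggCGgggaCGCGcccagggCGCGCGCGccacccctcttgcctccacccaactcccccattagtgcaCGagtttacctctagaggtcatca
Hoxd1: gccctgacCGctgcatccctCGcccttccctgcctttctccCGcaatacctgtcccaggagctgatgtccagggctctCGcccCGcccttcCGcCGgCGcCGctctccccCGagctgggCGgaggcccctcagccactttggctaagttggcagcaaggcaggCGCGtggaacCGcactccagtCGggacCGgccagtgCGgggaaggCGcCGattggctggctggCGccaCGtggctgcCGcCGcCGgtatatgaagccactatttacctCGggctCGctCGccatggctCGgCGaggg
Hoxd10: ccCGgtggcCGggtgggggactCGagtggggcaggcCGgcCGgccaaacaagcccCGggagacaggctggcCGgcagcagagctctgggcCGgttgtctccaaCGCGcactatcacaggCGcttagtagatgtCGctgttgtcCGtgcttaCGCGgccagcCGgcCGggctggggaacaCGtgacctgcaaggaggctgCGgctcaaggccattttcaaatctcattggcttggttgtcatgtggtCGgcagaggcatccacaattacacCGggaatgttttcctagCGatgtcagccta
The windows of Hoxa5 and Hoxd1 each hold 29 CpGs and that of Hoxd10 holds 22, although their mean array levels were 7.17, 4.08 and 3.29.

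Across the array, genes with more CpGs in this window had higher signals, and the Hox genes with such windows did not follow. Of all genes with 18 or more CpGs, 14.8% of 6933 had a mean below the median probe set, and their median level was 8.79. Of the 8 Hox genes in this class 7 were below it, with a median level of 5.22. The exception was Hoxa5. In the lowest class, of 0 to 6 CpGs, 72.7% of all genes were below the median probe set, as were 2 of 3 Hox genes. As a group the Hox windows were not richer in CpG than others, with a median of 14 against 17 over all genes. The count uses the first window listed for each gene, and a Hox gene can have other starts. The CCAAT motif, searched on both strands, was present in 15 of the 24 listed Hox windows (62.5%) and in 37.4% of all 32851 windows, and it occurs in all 3 windows shown. TAATTA, a core that homeodomains can bind, was present in 2 of 24 (8.33%) and 5.29% of all windows, and TATAAA in 4 of 24 (16.7%) and 13.6%. TGATTNAT, a composite site of Hox proteins with Pbx partners, was present in 2 of 24 (8.33%) and 3.22%. These matches describe letters in a window and are not binding sites.

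**Figure D2:**
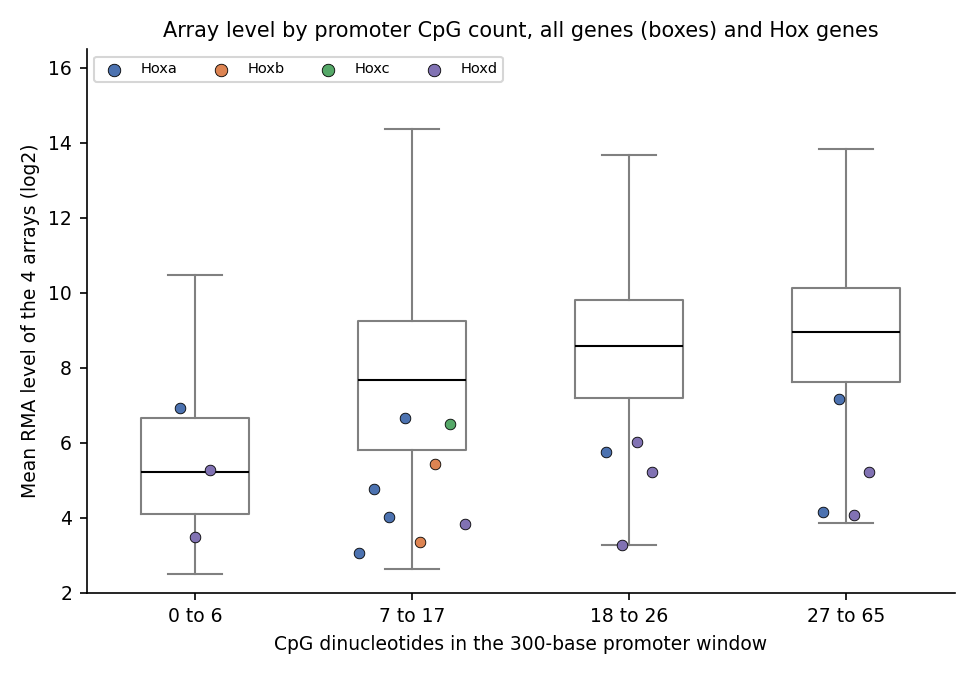
Mean RMA level (log2) of all genes with a promoter window, in 4 classes by CpG count, with the Hox genes as points coloured by cluster. Boxes give the quartiles and median, and whiskers reach the furthest gene within 1.5 box lengths. In the 2 upper classes the median of all genes is 8.60 and 8.97, and 7 of 8 Hox genes lie below the array median.

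Within each class of level, the median spread between mice of the same genotype was larger for the Hox genes than for all genes. The within-genotype SD of the 15 members whose mean was below the lower quartile had a median of 0.15, against 0.11 over all 3108 genes of that class. Between the lower quartile and the median the values were 0.12 and 0.11, and above the median 0.13 for the 7 Hox genes and 0.062 for all genes. These 7 had means of 6.495 to 7.165, while that class reached 14.5, so its genes were not matched to them in level. The range over the 4 arrays exceeded the 90th percentile of its level class for 8 Hox genes, 24.2% of 33, where 9.88% of all genes did so. These were Hoxa3, Hoxb2, Hoxb3, Hoxb5, Hoxb6, Hoxb13, Hoxc4 and Hoxd1, named after their values were seen. Hoxb2, Hoxb3 and Hoxc4 fell in the class above the median, where the 90th percentile was 0.29, against 0.46 in the class below. Their means of 6.64, 6.56 and 6.495 lay at the dim edge of their class. Of their ranges of 0.54, 0.33 and 0.31, only that of Hoxb2 also exceeded 0.46, so the count depends on where the classes are cut. Hoxb5 and Hoxb6 each ranged over 0.96, a 1.95-fold span that 0.639% of genes in their class reached. Hoxc6 and Hoxa10 were among the steadiest, with ranges of 0.06 and 0.08. With 4 arrays these are descriptions of the libraries, with no test.

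**Figure D3:**
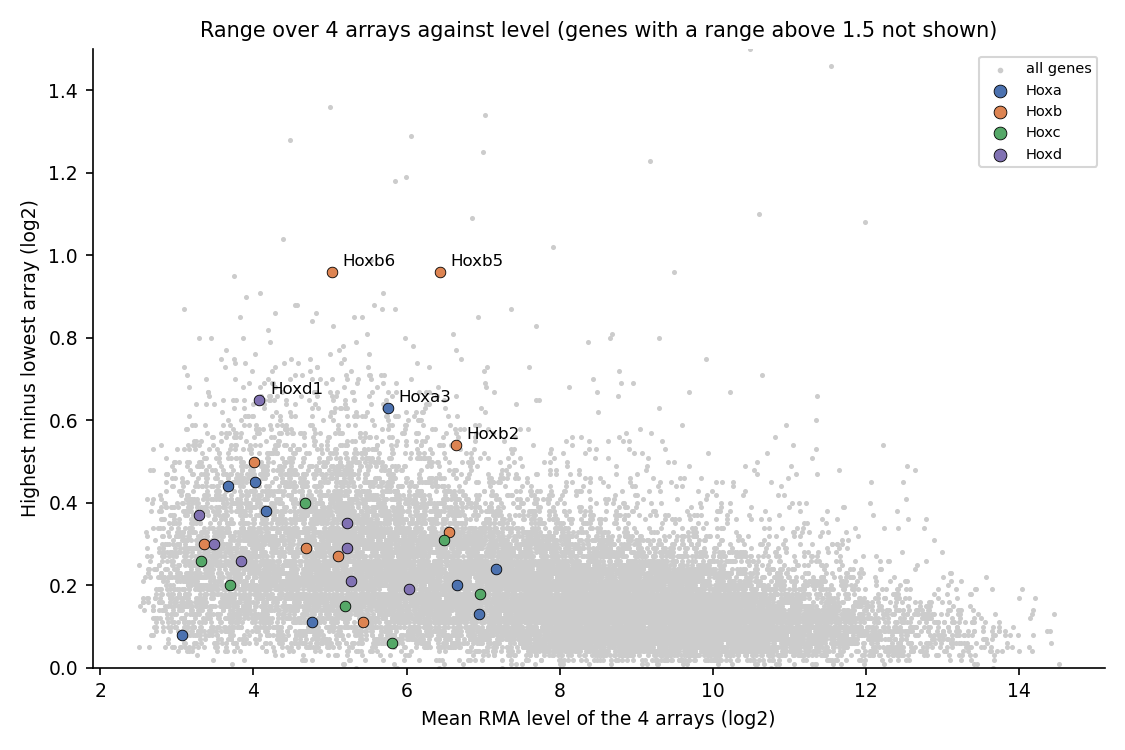
Highest minus lowest array (log2) against the mean level of the 4 arrays, for all genes (grey) and the 33 Hox genes (coloured by cluster). Hoxb5 and Hoxb6 stand at 0.96, and Hoxd1, Hoxa3 and Hoxb2 at 0.65, 0.63 and 0.54, while most Hox genes lie among the other genes of their level.

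Several genes of the 3′ part of the clusters were low in the first wild-type mouse. It was lowest by at least 0.3 for 7 of the 48 Hox probe sets (14.6%), where 0.451% of all probe sets met this rule. By brightest probe set the rule took 4 of 33 genes, against 0.423% of all genes. The share was 1.06% for all genes below the lower quartile, 0.96% from there to the median and 0.094% above it. The rule was set after the values had been seen. All 7 sets read paralogues 1 to 5, where there are 22 probe sets, and 0 of the 26 sets of paralogues 6 to 13 met it. For the second wild-type, first knockout and second knockout arrays the same rule took 0, 1 and 0 of the 48 Hox probe sets. Fewer cells that express a gene and less RNA per cell cannot be told apart in tissue RNA. Some of the 7 sets, such as those of Hoxd1 and Hoxa2, were below the lower quartile on all arrays. At that level signal and background cannot be told apart either. Others, such as the Hoxa5 set with a mean of 6.88, were brighter. The cause was not tested.

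Hoxd1, which in mice shapes pain-sensing neurons, measured 3.61 in the first wild-type mouse, and 4.26, 4.20 and 4.25 in the second wild type and the 2 knockouts. The remaining mice were thus within 0.06 of each other. Hoxa2, which patterns the upper hindbrain and the second arch, measured 3.72 against 4.17, 4.15 and 4.05 in the same order. Hoxb2 and Hoxb5, given above, and the unique-design probe set of Hoxa5 were likewise lowest in that mouse, with gaps of 0.33, 0.44 and 0.69 to the next array. A dimmer Hoxa3 set measured 3.73 against 4.68, 4.24 and 4.20, and a dimmer Hoxc5 set 3.18 against 3.62, 3.79 and 3.67. None of the other sets of these genes reached a gap of 0.3. The brightest Hoxa3 set was still lowest in the first wild-type mouse, at 5.46 against 5.79, 6.09 and 5.70. Its gap was 0.24, and that of the shared-design Hoxa5 set was 0.07. A further Hoxc5 set was highest in the first wild-type mouse, at 4.71 against 4.47, 4.40 and 4.67, and the brightest Hoxc5 set had it second highest, at 5.22. In a pair of other Hoxa3 sets the first knockout was lowest, at 5.17 and 4.14, beside 5.21 and 4.20 in the first wild type. Outside the single-gene sets, the probe set shared by Hoxb7 and Hoxb8 measured 4.29 against 5.20, 5.55 and 5.11. For Hoxb6 the first wild-type and second knockout mice were both low. Other members of the same numbers were not separated, among them Hoxb1 and Hoxb4, whose first wild-type values in the brightest set lay within the range of the other mice. For Hoxb3 the brightest set also placed that mouse within the range, while its dimmer set measured 5.62 there against 5.87, 5.99 and 5.82.

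Among the hindbrain and spinal cord genes, Slc6a5 was also lowest in the first wild-type mouse, at 8.25 against 8.47, 8.40 and 8.36, a smaller gap than for the Hox genes. That array was lowest for 24.3% of all genes. Of the forebrain homeobox genes, Nkx2-1 was lowest there by 0.31, while Cux2 was highest there. Glra1 measured 8.31 and 8.53 in the wild-type mice against 8.59 and 8.13 in the knockouts, low in the same mice as Hoxb6. Tph2 and Slc6a4, genes of serotonin neurons, were low in a different pair of mice, the first of each genotype. Tph2 measured 7.26 and 7.23 there against 7.47 in both others, and Slc6a4 6.34 and 6.15 against 6.69 and 6.71. Lmx1b, of the same list, did not share this, with 5.82 and 5.97 in the wild-type mice against 5.98 and 5.81 in the knockouts. The mean of the 8 measured hindbrain markers was 6.59 and 6.74 in the wild-type mice against 6.65 and 6.64 in the knockouts. Phox2a and En1 were below the lower quartile on all arrays. Whether the amount of hindbrain tissue in each sample had a part in the Hox values was not tested.

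**Figure D4:**
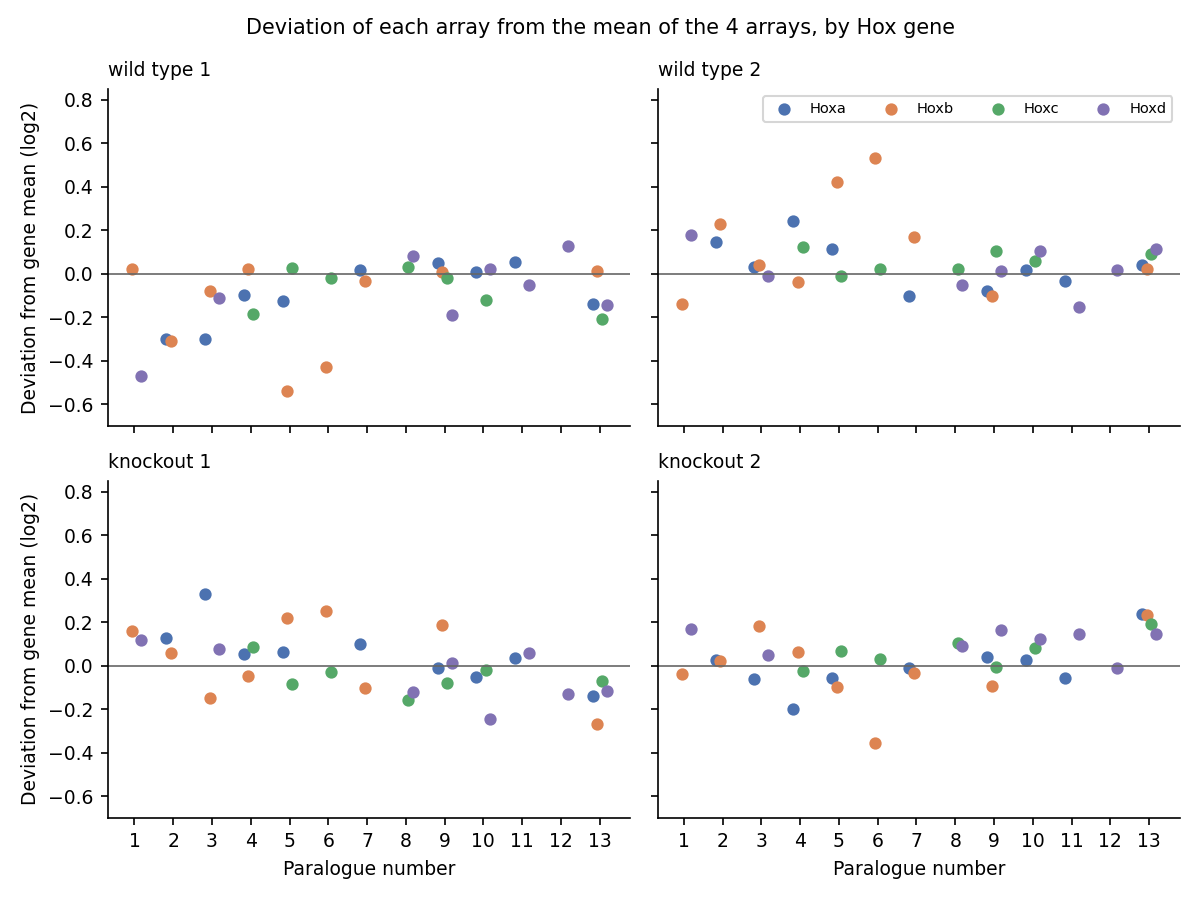
Deviation of each array from the mean of the 4 arrays (log2) for each Hox gene, by paralogue number and coloured by cluster, with 1 panel per mouse. In wild type 1 several genes numbered 1 to 6 lie 0.30 to 0.54 below their mean, and in knockout 2 most genes numbered 10 to 13 lie slightly above it.

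The 5′ genes showed a smaller displacement in the second knockout mouse. Of the 10 genes with paralogue numbers 10 to 13, 8 had their highest value there. The same array was highest for 40.8% of all genes below the lower quartile. Hoxb13 measured 4.02 and 4.03 in the wild-type mice against 3.74 and 4.24 in the knockouts, and Hoxa13, which patterns the digits and the hindgut, 4.02 and 4.20 in the wild-type mice against 4.02 and 4.40 in the knockouts. In both genes the knockout mice differed by more than the wild types did.

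No Hox gene passed the test between genotypes. In limma 0 of the 33 genes and 0 of the 48 probe sets passed an adjusted p of 0.05, where 0.00444% of all 45037 probe sets did, and each Hox probe set had an adjusted p of 1. At an unadjusted p under 0.05 limma took 0 of the 33 genes and 2 of the 48 probe sets, against 3.42% of all probe sets. Knockout was above wild type without overlap for 2 Hox genes, where 15.5% of all genes were, and below it for 1, where 12.8% were. The count of genes without overlap was 6 in place of 3 with all probe sets of a gene averaged, and also with quantile normalization repeated. The shares over all genes were not counted under these settings. The differences ran from -0.15 to 0.29 with 20 positive and 12 negative. Their median was 0.03, beside 0.005 over all genes, and -0.03 without the first wild-type mouse. With 2 mice per group and SEs of 0.072 to 0.38 for the Hox genes, a difference of this size could not be told from 0, and the test does not show that the genotypes are alike.

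Hoxd11, Hoxd3 and Hoxd12 were the genes without overlap, all of the Hoxd cluster. Hoxd11, which patterns the forearm, measured 3.43 and 3.33 in the wild-type mice against 3.54 and 3.63 in the knockouts, a difference of 0.21 (SE 0.081). Hoxd3 measured 5.92 and 6.02 against 6.11 and 6.08, a difference of 0.13 (SE 0.076). Hoxd12 measured 3.96 and 3.85 against 3.70 and 3.82, a difference of -0.15 (SE 0.086), so these neighbours differed in sign. The 2 probe sets under the unadjusted limit were dimmer sets of Hoxd13 and Hoxc6. The Hoxd13 set measured 4.45 and 4.41 in the wild-type mice against 4.74 and 4.86 in the knockouts, a difference of 0.37 (SE 0.080). Hoxd13's brighter set differed by 0.03 (SE 0.14), with 5.08 and 5.34 against 5.11 and 5.37. For Hoxc6, whose dimmer set differed by 0.40 (SE 0.15), the other sets gave 0 and -0.25. The probe sets of each gene therefore did not give a common difference.

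Of the other members with the largest differences in either direction, Hoxd1 differed by 0.29 (SE 0.22), and without the first wild-type mouse by -0.04. Hoxa3, which patterns the thymus and parathyroid, measured 5.46 and 5.79 in the wild-type mice against 6.09 and 5.70 in the knockouts, a difference of 0.27 (SE 0.18). Hoxd9 measured 5.03 and 5.23 against 5.23 and 5.38, a difference of 0.18 (SE 0.11). On the lower side Hoxa4 measured 3.57 and 3.91 against 3.72 and 3.47, and Hoxb7 5.07 and 5.27 against 5.0 and 5.07, differences of -0.15 (SE 0.15) and -0.14 (SE 0.097). Hoxd10 differed by -0.13 (SE 0.14). Each of these overlapped or met between the genotypes.

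**Figure D5:**
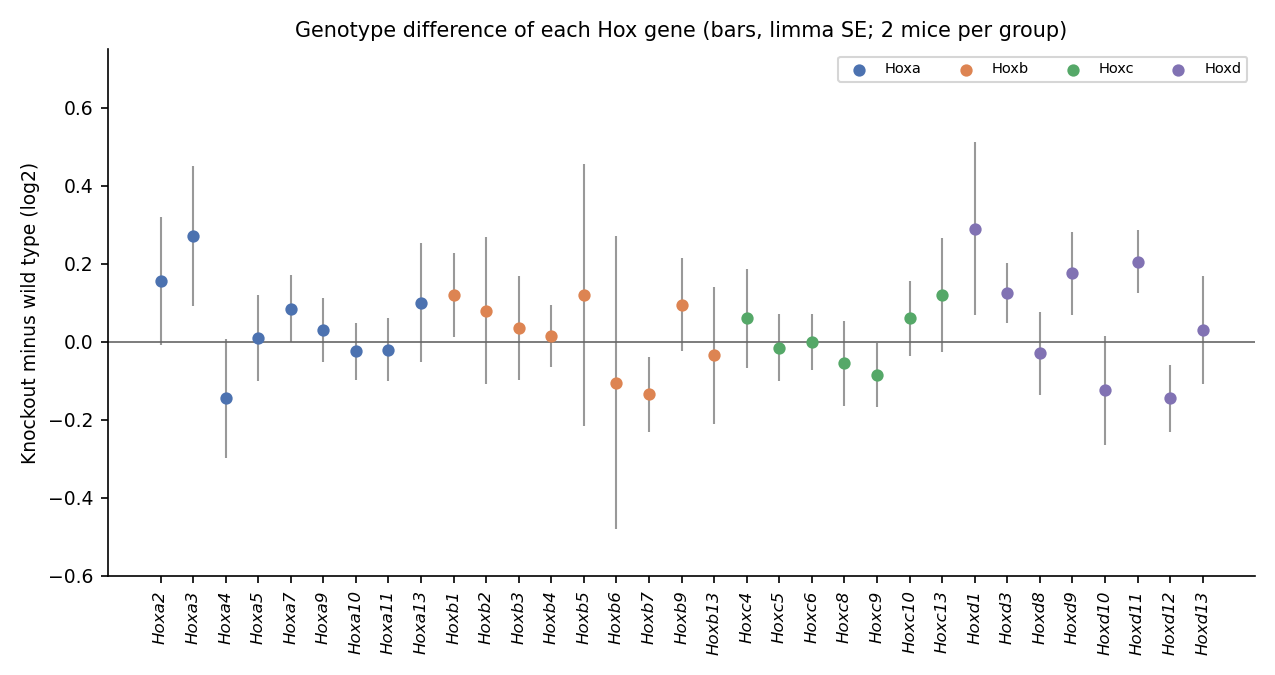
Knockout minus wild type (log2) for the brightest probe set of each Hox gene, with the SE from limma as bars (2 mice per group). The differences run from -0.15 to 0.29, and Hoxb6 and Hoxb5 have the longest bars.

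Genes that work with or on the Hox clusters were mostly bright and had small differences. Of 8 measured TALE cofactors, homeodomain proteins that bind DNA together with Hox proteins, 6 were above the median on all arrays, with a median level of 8.72. Over all genes 62.4% were above the median on all arrays, and the median level was 7.675. Meis2 had the highest mean, 10.90, and differed by -0.11 (SE 0.082). Pbx4 had the lowest mean, 6.01, and differed by -0.22 (SE 0.077), and Meis3 differed by 0.21 (SE 0.10). Polycomb genes had a median level of 9.31, with 19 of 21 above the median on all arrays. Rbbp4 was the brightest at 12.29 and Pcgf2 the dimmest at 4.63, and Ezh2, the methyltransferase that marks silent Hox chromatin, had 7.41. All 9 genes of the Trithorax and H3K27 demethylase list, which counter Polycomb, were above the median. Kmt2d among them differed by 0.20 (SE 0.084) and Men1 by -0.13 (SE 0.072). None of the 8, 21 and 9 genes passed the adjusted threshold in limma, where 0.00444% of all probe sets did. At an unadjusted p under 0.05 there were 1, 0 and 0 of them, against 3.42% of all probe sets, and their median differences were -0.01, 0.01 and 0.

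Of 14 measured retinoic acid genes, 8 were above the median on all arrays, where 62.4% of all genes were. Their differences were positive for 11 and negative for 3 with a median of 0.045, beside 9403 positive and 8288 negative over all genes. Cyp26b1, which degrades retinoic acid, differed by 0.23 (SE 0.070), and Rarb, a receptor that is itself induced by retinoic acid, by 0.11 (SE 0.082). Aldh1a1, which makes retinoic acid, had the highest mean at 11.09. Limma called 0 of these 14 genes at the adjusted threshold, against 0.00444% of all probe sets, and 1 at an unadjusted p under 0.05, against 3.42%. Homeobox genes of the forebrain were brighter than the Hox genes as a group, with 14 of 17 above the median on all arrays and a median level of 7.66. Pou3f3, of cortical neurons, had a mean of 10.31, and Nkx2-1, of the hypothalamus and ventral forebrain, the lowest at 5.45. Homeobox genes of the caudal and ParaHox list, which holds relatives of the Hox genes, had 0 of 8 above the median, a median level of 5.22 and means from 2.92 for Cdx4 to 5.61 for Evx2. Their differences had a median of -0.07, and the forebrain group's was 0.035, with 0 genes of either called in limma at an adjusted or unadjusted limit.

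Tissue-specific genes from outside the brain gave levels like those of the Hox genes. The Hox median level was 5.10. Liver genes had a median of 4.86 over 9 genes, germ cell genes 5.09 over 10 and skeletal muscle genes 5.27 over 10, with 4 genes of each list below the lower quartile on all arrays. Highest among them were Apoa2 at 6.23, Prm1 at 6.96 and Acta1 at 8.36. The range over the 4 arrays had a median of 0.17 for liver, 0.21 for germ cells, 0.32 for muscle and 0.29 for the Hox genes. Skeletal muscle genes had a mean of 5.20 and 5.21 in the wild-type mice against 5.21 and 5.41 in the knockouts. The highest was thus the second knockout array, which held the nasal transcripts. Liver and germ cell means were also highest there, at 5.11 and 5.22, against at most 5.05 and 5.20 on the other arrays. That array was highest for 40.8% of all genes below the lower quartile.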

How the data were processed

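Brain RNA of 4 mice was labelled from 100 ng with a 3′ IVT kit, per the labels' protocols. The deposited values are log2 levels from RMA, which the submitters' processing notes name without a version. RMA corrects background and normalizes between arrays, which compresses changes of dim genes. Of 45101 rows, 64 controls were left out. Probe sets were named from the platform annotation, and each gene was represented by its brightest single-gene probe set by mean of the 4 arrays. Array medians and quartiles were taken over all 45037 probe sets. The genotypes were compared over all probe sets with lmFit and eBayes of limma 3.58.1 under R 4.3.3, two-sided, with Benjamini-Hochberg adjustment and a threshold of 0.05. An adjusted p under it counts as called. The fit was checked on simulated data with 50 planted changes of each size. It recovered 54% of those of 1 log2 unit and 54% of those of -1. Of those of -2 and -3 it recovered 96% and 100%, and it made 4 false calls. Precision is limited by the 4 arrays. Whether mice with the same number share a litter was not stated. The members, lists and naming rule (the brightest 2 genes of each cluster, those always above the median, the extremes of difference, range and level, and discordant probe sets) were chosen with earlier results of these data known. Alternatives were other probe set choices, normalizations, filters, variance models, a replicate block and leaving out each array. Promoter windows were matched by Entrez number.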

Additional observations from a re-analysis of the deposited data

How the results depend on the processing

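The counts of Hox genes below the array median and lower quartile kept within 1.5 times of 25 and 14 under the settings tried, except that 22 of 33 lay below the lower quartile when the reference was taken over the brightest probe set of each gene; all 33 then lay below the median. The genotypes did not overlap for 6 of 33 Hox genes, in place of 3, with all probe sets of a gene averaged and also with quantile normalization repeated. Over all genes, in the main setting, knockout was higher without overlap for 15.5% and lower for 12.8%. These shares were not counted under the other settings. The median Hox difference ran from -0.03 without the first wild-type array to 0.06 without the first knockout array, and reached 0.08 with probe sets averaged. Over all probe sets, limma's 2 calls became 10 with an intensity trend and robust variance, 0 with a replicate block, and 0 to 0 without each array in turn; 0 Hox probe sets were called in any of these fits. The deviations of same-numbered mice correlated at 0.241 across probe sets, which with 2 pairs does not settle whether the numbers pair the mice. The Hox probe sets low in the first wild-type array numbered 2 with a gap of 0.5 and 4 with 1 probe set per gene, in place of 7, and 6 with quantile normalization repeated; these settings were chosen after seeing the data. Leaving out each array changed the sign of 7 of 14 Hox genes examined, with ranges of -0.315 to 0.025 for Hoxa4, -0.11 to 0.13 for Hoxa5, -0.035 to 0.095 for Hoxa9, -0.36 to 0.60 for Hoxb5, -0.585 to 0.375 for Hoxb6, -0.035 to 0.615 for Hoxd1 and -0.31 to 0.06 for Hoxd10. The cause was not tested.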
